A study of Mus musculus with 14 samples.

Results

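Endothelin and nitric oxide signalling was followed through 10 genes: the ligand genes Edn1, Edn2 and Edn3, the receptor genes Ednra and Ednrb, the converting enzyme gene Ece1, and Prkg1, Pde5a, Npr1 and Npr3 of the cyclic GMP branch. They were chosen by name, and all 10 were found among the 21898 genes of the deposited count table. The samples were RNA of whole colon tissue from wild-type mice. A first group of 7 had received saline (PBS) by gavage, and a second group of 7 the gut bacterium Bacteroides thetaiotaomicron, in a series on saliva, this bacterium and hypertension. The labels give no strain, age, sex, dose or time of sampling, and their treatment and batch entries are the same for all samples. Titles number biological replicates without saying that each was a separate animal, so the spread behind each p-value is that between samples as labelled.

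Endothelins are short peptides cut from larger precursors, with endothelin-converting enzyme making the last cut. The EDNRA receptor on smooth muscle drives contraction, whereas EDNRB is found on endothelium, where it triggers nitric oxide release, and on enteric neural crest cells and glia. In mice, loss of Edn3 or Ednrb leaves the distal colon without enteric neurons. Nitric oxide activates soluble guanylyl cyclase, and the cyclic GMP that it makes activates the kinase encoded by Prkg1, which relaxes smooth muscle. Pde5a encodes an enzyme that destroys cyclic GMP. Npr1 encodes the receptor cyclase for atrial natriuretic peptide, and Npr3 the receptor that clears natriuretic peptides.

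The ligands form a family, and the stretch that encodes each mature peptide is shown to compare them at the level of sequence. All 3 stretches lie in exon 2 on the plus strand of GRCm38, at chr13:42303649-42303711 for Edn1, chr4:120161951-120162013 for Edn2 and chr2:174761749-174761811 for Edn3, and they were read from the GENCODE M21 transcripts. The capitals mark the 4 cysteine codons, whose residues form the disulfide bridges.
Edn1: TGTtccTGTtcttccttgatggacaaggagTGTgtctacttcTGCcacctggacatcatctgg
Edn2: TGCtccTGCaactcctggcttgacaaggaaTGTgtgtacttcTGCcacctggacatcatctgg
Edn3: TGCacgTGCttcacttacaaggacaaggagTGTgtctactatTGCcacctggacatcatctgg
Of 63 bases, Edn1 and Edn2 share 53, Edn1 and Edn3 share 50, and Edn2 and Edn3 share 48. Of 21 codons, 18 encode the same residue in Edn1 and Edn2, and 15 do so in Edn3 and either of the others.

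The total count per sample was 13150140 to 16781708. Epithelium and muscle were both present, with the epithelial gene Epcam at 1418 to 1932 CPM (read counts scaled by TMM-adjusted library size) and the smooth muscle gene Myh11 at 954 to 1729 CPM. These markers do not show which part of the colon a sample held. PBS samples 1, 3 and 5 and B. thetaiotaomicron sample 3 stood apart at one end of the first principal component, which held 58.3% of the variance of the 1000 most variable genes, Edn1 and Edn3 among them. Hoxb13, a transcription factor gene of the distal hindgut, was at 376 CPM or more in these 4 libraries. In the other 10 it ranged from 0.195 to 263 CPM, so these were not alike in this gene. Counts are of bulk tissue, so fewer cells of a type and less RNA per cell cannot be told apart.

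Compared per length, in FPKM (fragments scaled by gene length and library total), Ece1 had the highest level of the 10 genes, 33.4 ± 3.78 FPKM (SD, n = 14). Pde5a followed at 19.0 ± 1.79 FPKM (SD, n = 14), and these genes did not overlap in any library. Edn2 came next at 9.51, then Ednrb at 6.03, Edn1 at 5.27, Edn3 at 3.82 and Ednra at 3.68 mean FPKM. From Pde5a down to Ednra, each gene's range over the 14 libraries overlapped that of its neighbour. Edn3 was above Ednra in 7 of 14 libraries, Edn1 above Edn3 in 9 and Ednrb above Edn1 in 9, so this part of the order did not hold from library to library. Prkg1 at 1.16, Npr1 at 0.83 and Npr3 at 0.329 mean FPKM kept their order in all 14 libraries, although the ranges of neighbours touched.

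**Figure D1:**
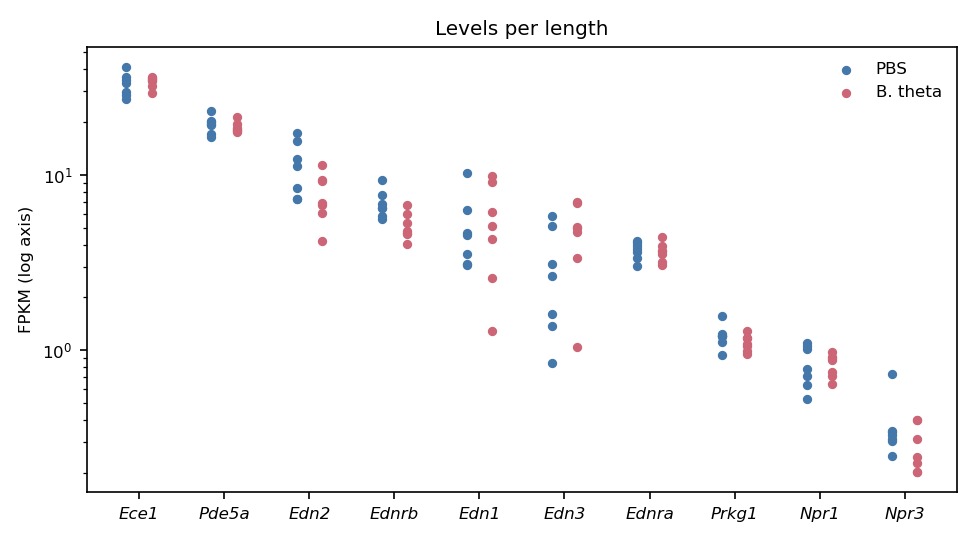
Levels per length of the 10 genes in 14 colon libraries, with FPKM on a log axis and genes ordered by mean. Each point is 1 library, blue for PBS and red for B. theta (B. thetaiotaomicron). Ece1 and Pde5a have the highest means, 33.4 and 19.0 FPKM, and Npr3 the lowest, 0.329 FPKM. The ranges of Pde5a and Edn2 overlap.

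None of the 10 genes differed between the gavages after adjustment over all genes. Ednrb and Edn2 had the smallest p-values and lower means after the bacterium, Edn3 had a higher mean, and Ednra, Ece1, Pde5a and Npr1 had means that differed from the PBS mean by little, from -3.80% for Pde5a to 2.22% for Ece1. All 10 passed the filter on low counts, and 0 passed a Benjamini-Hochberg adjusted p of 0.05 in edgeR's quasi-likelihood test, against 0.249% of 14070 genes tested (35 genes; 0.156% higher and 0.0924% lower after the bacterium). An unadjusted p under 0.05 was reached by 2 of the 10 in edgeR, both with lower values after the bacterium, against 15.2% of all genes in either direction 7.26% in that direction and 7.98% in the other. That count was 1 without any 1 of PBS samples 4 and 7 and B. thetaiotaomicron samples 4, 6 and 7, and 3 with the smooth muscle covariate. DESeq2 also called 0 of the 10, against 2.95% of its genes, and gave 2 of them an unadjusted p under 0.05. The CPM ranges of the groups overlapped for all 10 genes, as they did for all but 0.54% of genes tested. The median log2 fold change was -0.05 over the 10 genes and -0.01 over all genes tested.

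**Figure D2:**
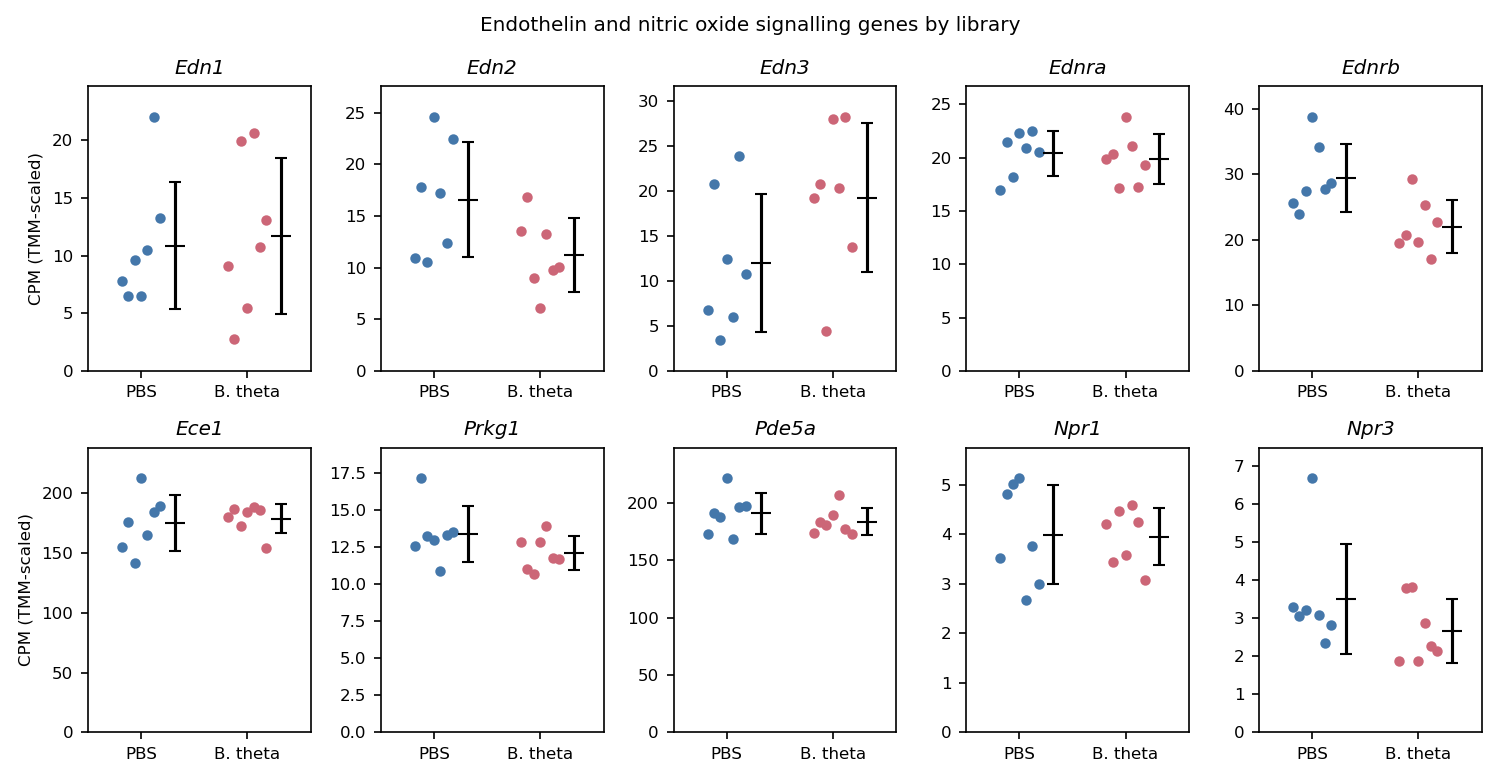
CPM on TMM-scaled library sizes for each of the 10 genes, with 7 PBS libraries in blue and 7 B. theta (B. thetaiotaomicron) libraries in red. Points are libraries, and black marks are the mean and SD of each group. Ednrb has means of 29.5 and 22.0 CPM, and the groups overlap for every gene shown.

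Among the ligands, Edn2, which encodes the endothelin first described in the mouse intestine as vasoactive intestinal contractor, ranged from 10.6 to 24.6 CPM with PBS (median 17.2) and from 6.06 to 16.9 CPM after the bacterium (median 10.03). All 7 B. thetaiotaomicron samples lay below the PBS median, 4 of them below every PBS sample. The means were 16.6 ± 5.58 and 11.2 ± 3.57 CPM (SD, n = 7 each). The log2 fold change of -0.57 ± 0.24 (SE) did not pass edgeR's quasi-likelihood test over all genes (adjusted p = 0.273). Without PBS sample 4, which held the highest value, the log2 fold change was -0.44.

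Edn3, the ligand needed for enteric neurons, was the most variable of the 10 genes, with a CPM 8.18 times as high in the highest library as in the lowest. It ranged from 3.46 to 23.9 CPM with PBS (median 10.8) and from 4.39 to 28.3 CPM after the bacterium (median 20.4). Of the 7 B. thetaiotaomicron samples, 6 lay above the PBS median, and the groups overlapped over most of their range. The log2 fold change was 0.68 ± 0.44 (SE) with an adjusted p of 0.498 in edgeR. With the distal hindgut score, described further on, as a covariate it was 0.37 ± 0.26 (SE), and without the 4 libraries that stood apart 0.37 ± 0.26 (SE). With the smooth muscle score as a covariate it was 0.83 ± 0.33 (SE; adjusted p = 0.209 in edgeR). Those 4 libraries held 3.46 to 6.82 CPM of Edn3 and the other 10 held 10.8 to 28.3 CPM.

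Edn1, the ligand of endothelium and many epithelia, ranged from 6.48 to 22.1 CPM with PBS (median 9.61) and from 2.80 to 20.7 CPM after the bacterium (median 10.7). High and low samples were found in both groups: PBS sample 6 and B. thetaiotaomicron samples 3 and 5 were at 19.9 to 22.1 CPM, and B. thetaiotaomicron sample 2 was lowest. The log2 fold change was 0.10 ± 0.41 (SE) with an adjusted p of 0.935 in edgeR, and its 95% interval (normal, from the SE) of -0.70 to 0.90 spans changes in either direction. Its sign turned without the 4 libraries, at -0.23 ± 0.54 (SE).

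The mix of ligands differed from library to library. Edn2 made up 59.0 ± 12.1% of the summed FPKM of the ligand genes with PBS and 42.8 ± 11.4% after the bacterium (SD, n = 7 each). Edn3 made up 14.3 ± 7.21% and 27.1 ± 13.9% (SD, n = 7 each), and Edn1 26.7 ± 10.3% and 30.2 ± 16.1%. Edn2 had the largest share in 6 of 7 PBS samples, the exception being PBS sample 6, led by Edn1. After the bacterium Edn2 led in 3 samples, Edn1 in 2 and Edn3 in 2. The summed level was 19.3 ± 5.30 FPKM with PBS and 17.9 ± 3.21 FPKM after the bacterium (SD, n = 7 each). These shares are descriptions and were not tested.

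**Figure D3:**
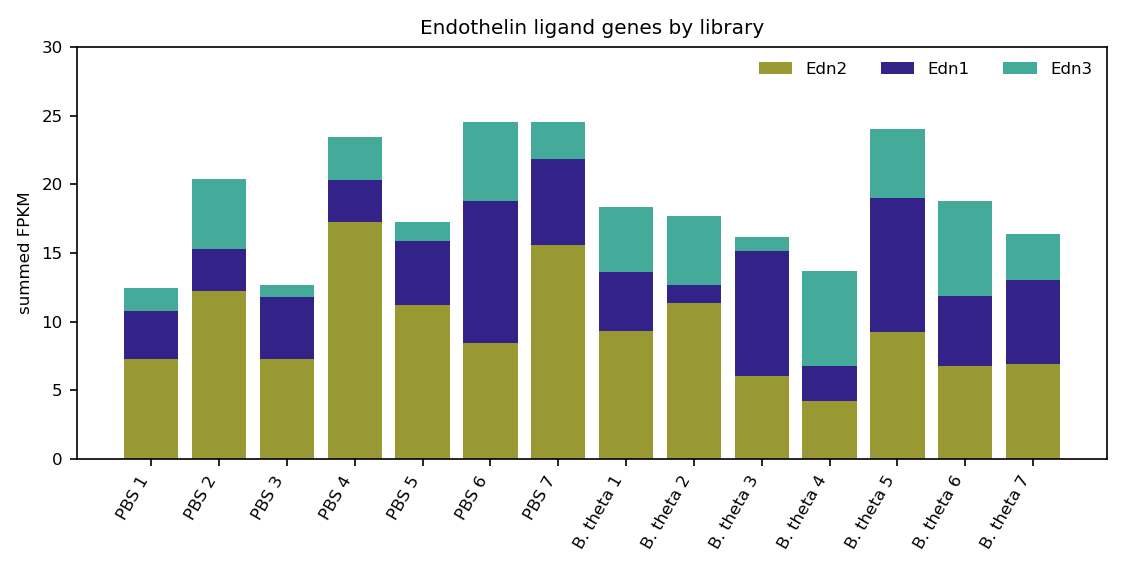
Summed FPKM of the endothelin ligand genes in each of the 14 libraries, as stacked bars of Edn2 (bottom), Edn1 (middle) and Edn3 (top). Edn2 is the largest segment in 6 of 7 PBS libraries and in 3 of 7 B. theta (B. thetaiotaomicron) libraries.

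Among the receptors, Ednrb ranged from 23.9 to 38.8 CPM with PBS (median 27.7) and from 17.05 to 29.2 CPM after the bacterium (median 20.8). Of the 7 B. thetaiotaomicron samples 5 lay below every PBS sample, and sample 3 was the one above the PBS median. The means were 29.5 ± 5.22 and 22.0 ± 4.10 CPM (SD, n = 7 each), a fold change of 0.747 with an interval of 0.629 to 0.886. On the log2 scale this was -0.42 ± 0.13 (SE), and -0.34 without PBS sample 4, which held the highest value. Ednrb had the smallest p of the 10 genes, ranked 442 of 14070, and did not pass edgeR's test over all genes (adjusted p = 0.138). Adjusted p-values over the other settings ran from 0.0558 in DESeq2 to 0.284, and all had the same sign.

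Ednra ranged from 17.0 to 22.5 CPM with PBS (median 20.9) and from 17.1 to 23.9 CPM after the bacterium (median 19.9), with the groups nearly coincident. Its log2 fold change was -0.04 ± 0.09 (SE; interval -0.21 to 0.13; adjusted p = 0.869 in edgeR). The receptors were also compared within each library, as the log2 ratio of Ednra to Ednrb in FPKM with 0.1 added. The ratio was below 0 in all 14 libraries, with Ednrb the higher. It was -0.86 ± 0.22 with PBS and -0.49 ± 0.32 after the bacterium (SD, n = 7 each), 0.38 higher after the bacterium, and 6 of 7 B. thetaiotaomicron samples lay above the PBS median. A two-sided exact permutation test gave p = 0.0309, and p = 0.124 after Benjamini-Hochberg adjustment over the 4 ratios compared. Without B. thetaiotaomicron sample 3, which had the lowest ratio of its group (-1.11), the difference was 0.48 and the adjusted p was 0.0187 (exact permutation). Leaving out any other 1 sample gave adjusted p-values of 0.0653 to 0.242 in the same test. Sample 3 was also 1 of the 4 libraries that stood apart. Without all 4 the difference was 0.40 (exact permutation p = 0.0381, adjusted p = 0.152), on 4 PBS and 6 B. thetaiotaomicron samples. Leaving out sample 3 was 1 of 18 alternatives for this ratio, so the adjusted p without it was not taken as a result.

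The ratio of Edn1 to Edn3 was 0.91 ± 1.01 with PBS and 0.14 ± 1.64 after the bacterium (SD, n = 7 each), and the difference of -0.77 had an exact permutation p of 0.31 (adjusted p = 0.378 over the 4 ratios). It averaged 2.01 in the 4 libraries that stood apart and -0.07 in the other 10.

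Ece1, which encodes the enzyme that completes all 3 ligands, ranged from 141.6 to 213 CPM with PBS (median 176) and from 154 to 188 CPM after the bacterium (median 184). The highest and the lowest library were both PBS samples. Its log2 fold change was 0.03 ± 0.08 (SE; interval -0.12 to 0.19; adjusted p = 0.886 in edgeR), and it was -0.081 ± 0.071 (SE) without the 4 libraries.

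In the cyclic GMP branch, Prkg1 ranged from 10.9 to 17.2 CPM with PBS (median 13.2) and from 10.7 to 13.9 CPM after the bacterium (median 11.8). The log2 fold change was -0.14 ± 0.09 (SE; adjusted p = 0.498 in edgeR), with 6 of 7 B. thetaiotaomicron samples below the PBS median. Pde5a varied least of the 10 genes, from 168 to 222 CPM with PBS (median 191.0) and from 173 to 207 CPM after the bacterium (median 181). Its log2 fold change was -0.06 ± 0.06 (SE; interval -0.18 to 0.07; adjusted p = 0.707 in edgeR). The log2 ratio of Pde5a to Prkg1, the enzyme that removes the messenger over the kinase that reads it, was 3.90 ± 0.18 with PBS and 3.97 ± 0.10 after the bacterium (SD, n = 7 each; exact permutation p = 0.378, adjusted p = 0.378).

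The natriuretic peptide receptor genes had the lowest counts, 28 to 103 reads per library for Npr3 and 38 to 84 for Npr1. Npr3 ranged from 2.35 to 6.69 CPM with PBS (median 3.08) and from 1.88 to 3.82 CPM after the bacterium (median 2.28). The highest value, in PBS sample 4, was far from the other PBS samples, and 4 B. thetaiotaomicron samples lay below every PBS sample. The log2 fold change was -0.39 ± 0.25 (SE; adjusted p = 0.47 in edgeR), and -0.16 without PBS sample 4. Npr1 ranged from 2.66 to 5.13 CPM with PBS (median 3.77) and from 3.08 to 4.59 CPM after the bacterium (median 4.21), with a log2 fold change of -0.02 ± 0.17 (SE; interval -0.34 to 0.31; adjusted p = 0.977 in edgeR). The log2 ratio of Npr3 to Npr1 was -0.998 ± 0.37 with PBS and -1.29 ± 0.35 after the bacterium (SD, n = 7 each; exact permutation p = 0.153, adjusted p = 0.305). In GENCODE M21, exons of an antisense gene overlap 559 exonic bases of Npr1, and exons of a divergent non-coding gene overlap 321 of Npr3. Whether counting used strand is not given in the sources used here, so reads of these pairs may be mixed.

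**Figure D4:**
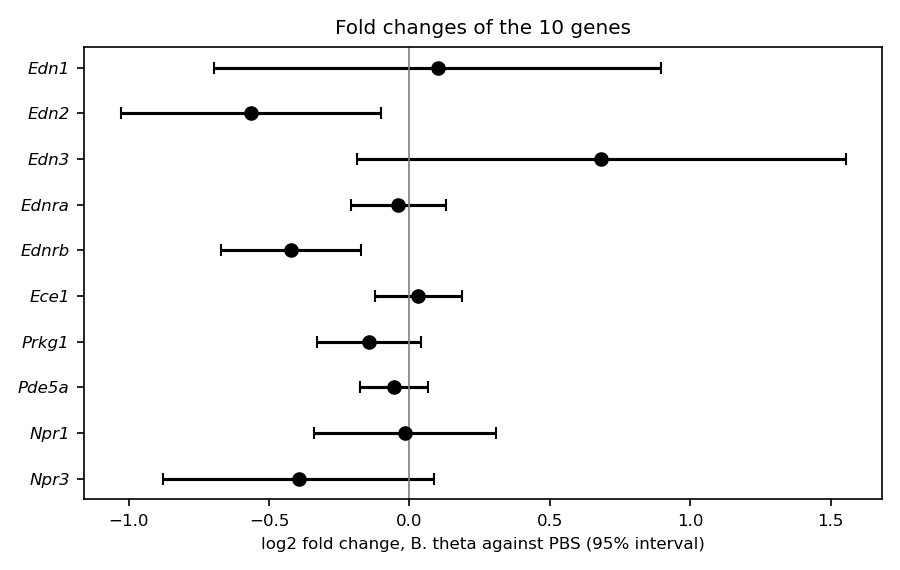
Log2 fold changes of the 10 genes after B. theta (B. thetaiotaomicron) against PBS from edgeR, with 95% intervals (normal, from the SE), not adjusted for the number of genes. Intervals of Edn2 (-1.03 to -0.10) and Ednrb (-0.67 to -0.17) lie below 0. Those of Edn1 and Edn3 are the widest.

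Other genes of the pathways were taken from lists. Of 20 further endothelin pathway genes 17 were tested, of 22 nitric oxide synthesis genes 22, and of 28 further cyclic GMP genes 22. In edgeR 0 of these passed over all genes, and an unadjusted p under 0.05 was reached by 1 (higher), 2 (lower) and 2 (1 higher and 1 lower) of them, which is 5.88%, 9.09% and 9.09% of those tested against 15.2% of all genes. The median log2 fold changes were -0.02, 0.01 and 0.02, beside -0.01 for all genes tested. The natriuretic peptide genes Nppa and Nppb had 0 reads in all 14 libraries, and Nppc, the gene of C-type natriuretic peptide, had 2 or fewer per library and was not tested. Ece2, the other converting enzyme gene, had 2 or fewer reads per library.

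Plcb2, a phospholipase C gene of leukocytes and tuft cells, had the smallest p of these lists. It ranged from 6.80 to 9.14 CPM with PBS and from 8.89 to 10.9 CPM after the bacterium, with a log2 fold change of 0.36 ± 0.08 (SE; adjusted p = 0.0787 in edgeR). Leukocyte markers had higher means in the same samples. All 8 of 8 had an unadjusted p under 0.05 in edgeR, against 15.2% of all genes, and 0 passed over all genes. Their summed level ranged from 561 to 876 CPM with PBS and from 735 to 1437 CPM after the bacterium. None of these markers was at 0. Their part in the Plcb2 value was not tested. Prkca and Itpr3, further steps of the same route, had log2 fold changes of 0.22 ± 0.15 and 0.08 ± 0.08 (SE), and the G protein genes Gna11 and Gna13 -0.15 ± 0.08 and -0.10 ± 0.06 (SE). Plcb4, another phospholipase C gene, had -0.12 ± 0.08 (SE).

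All 3 nitric oxide synthase genes were measured. Nos1, the neuronal synthase gene, was at 15.6 ± 4.04 CPM with PBS and 14.4 ± 3.69 CPM after the bacterium (SD, n = 7 each). Its log2 fold change was -0.12 ± 0.19 (SE). Nos3, the endothelial synthase gene, had 8 to 41 reads per library and a log2 fold change of -0.26 ± 0.28 (SE). Nos2, the inducible synthase gene, ranged from 3.28 to 102.9 CPM with PBS and from 5.41 to 58.4 CPM after the bacterium, with a log2 fold change of 0.35 ± 0.73 (SE). Adjusted p-values were 0.811, 0.705 and 0.86 in edgeR.

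Among genes that regulate the synthases, Cav1, whose protein caveolin restrains the endothelial synthase, had means of 164 ± 31.4 and 130.9 ± 13.4 CPM (SD, n = 7 each). All 7 B. thetaiotaomicron samples lay below the PBS median, but the log2 fold change of -0.33 ± 0.11 (SE) did not pass over all genes (adjusted p = 0.17 in edgeR). Gna13 and Plcb4 were split in the same way, with unadjusted p-values of 0.114 and 0.18 in edgeR. How many of all genes have such a split was not counted. Arg2, an arginase gene whose product uses the same substrate as the synthases, had -0.98 ± 0.45 (SE; adjusted p = 0.316), with 1 PBS sample at 12.9 CPM. Nostrin, Gch1 and Nos1ap had 0.20 ± 0.09, 0.17 ± 0.12 and 0.22 ± 0.20 (SE), and Qdpr, which recycles the cofactor of the synthases, -0.20 ± 0.13 (SE).

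Soluble guanylyl cyclase, the receptor for nitric oxide, is made of an alpha and a beta subunit. Gucy1a1 and Gucy1b1 had log2 fold changes of -0.03 ± 0.09 and 0.05 ± 0.10 (SE), with adjusted p-values of 0.903 and 0.869 in edgeR. Gucy1a2, the gene of the rarer alpha subunit, ranged from 0.627 to 1.82 CPM with PBS and from 0.27 to 0.923 CPM after the bacterium. All 7 B. thetaiotaomicron samples lay below the PBS median, on 4 to 29 reads per library, and the log2 fold change of -1.30 ± 0.32 (SE) did not pass over all genes (adjusted p = 0.0892). Vasp, a substrate of the kinase, was at 342 ± 29.5 and 374 ± 12.9 CPM (SD, n = 7 each), with a log2 fold change of 0.13 ± 0.06 (SE; adjusted p = 0.283). Ppp1r12a, a myosin phosphatase subunit gene, and Pde3a, a phosphodiesterase gene, had 0.07 ± 0.05 and 0.12 ± 0.09 (SE). Npr2, the receptor cyclase for C-type natriuretic peptide, had -0.10 ± 0.08 (SE), and Furin, a precursor-cutting protease gene, -0.05 ± 0.04 (SE).

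Within groups, several of the 10 genes varied with the make-up of the sample. Scores were the mean log2 CPM of marker genes, compared with each gene after subtracting group means, and 6 of 60 relations passed an adjusted p of 0.05 by permutation of Pearson's r. Edn3 was lower where distal hindgut genes were higher (r = -0.84, p = 8e-05, adjusted p = 0.0042, rho = -0.90, p = 4e-05, n = 14), with r = -0.78 without the 2 samples of most distant score and -0.56 within the 10 libraries that did not stand apart. Edn3 also varied with the epithelial score (r = 0.80, p = 0.00053, adjusted p = 0.00795; rho = 0.71, p = 0.00541, adjusted p = 0.0764, by permutation), with r = 0.82 without the 2 most distant samples and 0.81 within the 10 libraries. Of the 10 epithelial markers, 8 had a positive log2 fold change after the bacterium and 0 passed over all genes. An unadjusted p under 0.05 in edgeR was reached by 6 (5 higher and 1 lower), against 15.2% of all genes. Epcam did not overlap between the groups (at most 1750 CPM with PBS and at least 1769 CPM after the bacterium), as was so for 0.54% of genes tested. The summed level of the 10 markers was 12670 to 15490 CPM with PBS and 14380 to 16160 CPM after the bacterium, and none was at 0 in all libraries. Their part in the Edn3 comparison was not tested. The relation of Edn3 to the smooth muscle score had r = 0.73 (adjusted p = 0.0403) and rho = 0.62 (adjusted p = 0.18), by permutation. It dropped to r = 0.48 without the 2 most distant samples and 0.50 within the 10 libraries, so it leans on the samples left out. The relation of Edn3 to the distal hindgut score likewise leans in part on the 4 libraries that stood apart, given its r of -0.56 within the 10.

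Ece1 (r = -0.83, adjusted p = 0.0042; rho = -0.70, adjusted p = 0.0764, by permutation) and Ednra (r = -0.76, adjusted p = 0.023; rho = -0.78, adjusted p = 0.0362, by permutation) were also lower where the distal hindgut score was higher. Without the 2 most distant samples these were -0.67 and -0.61, and within the 10 libraries -0.60 and -0.47. Prkg1 varied with smooth muscle markers (r = 0.84, p = 0.0002, adjusted p = 0.0042; rho = 0.80, adjusted p = 0.0318, by permutation), and r was 0.79 without the 2 most distant samples and 0.77 within the 10 libraries. For Edn2, Ednrb, Edn1, Pde5a, Npr1 and Npr3 no relation to the 6 scores passed. Scores and genes share libraries and their scaling, so these relations are descriptions of the samples. The distal hindgut genes had a summed level of 14.6 to 789 CPM with PBS and 56.6 to 506 CPM after the bacterium. The smooth muscle genes had 4408 to 7852 and 3657 to 7077 CPM, with no marker of either list at 0 in all libraries. With the smooth muscle score as a covariate, the log2 fold change was -0.11 for Prkg1 (adjusted p = 0.404 in edgeR) and -0.44 for Ednrb (adjusted p = 0.066), and 0 of the 10 genes passed.

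**Figure D5:**
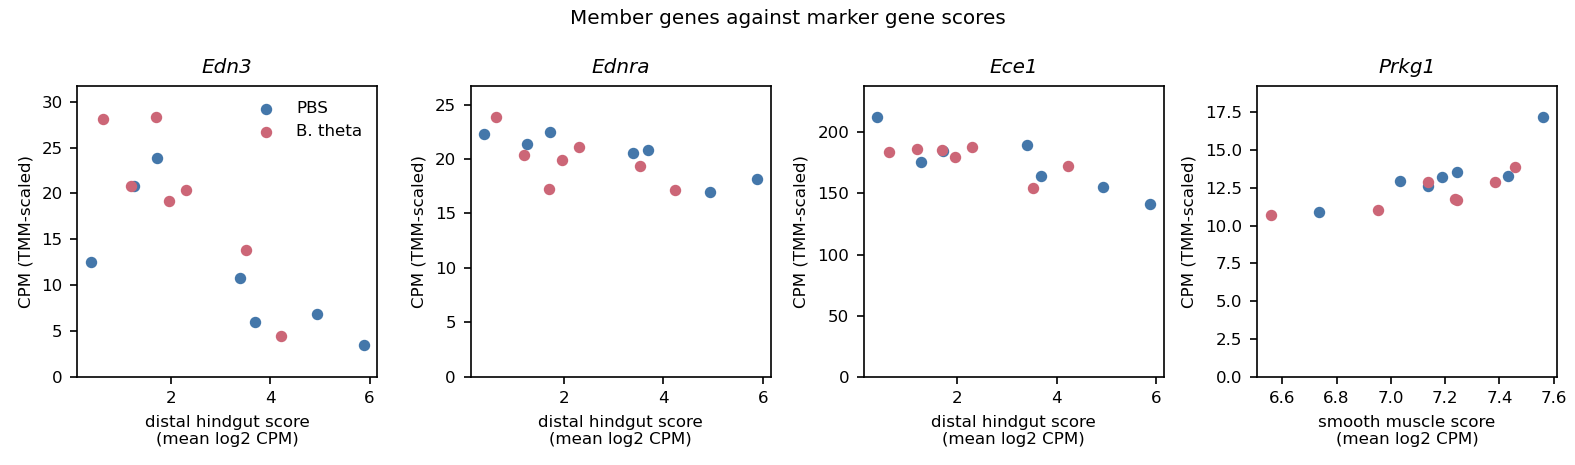
CPM of Edn3, Ednra and Ece1 against the distal hindgut score, and of Prkg1 against the smooth muscle score (mean log2 CPM of the markers), with PBS libraries in blue and B. theta (B. thetaiotaomicron) libraries in red. Edn3 lies at 3.46 to 6.82 CPM in the 4 libraries that stood apart. Prkg1 is highest in the PBS library with the highest smooth muscle score, at 17.2 CPM.

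The genes whose log2 CPM varied most like each of the 10 within groups were found among 13647 genes with a mean of at least 1 CPM, over 14 samples. They are the highest of many correlations and are given as descriptions. Edn3 was followed most closely by Epha7 (r = 0.97), Slc35a1 (0.97) and Diras2 (0.97), which were 0.92, 0.82 and 0.91 within the 10 libraries. For Ece1 they were Anp32a (0.95), Hsd3b3 (0.94) and Foxp4 (0.94), and for Pde5a Adgrl1 (0.94), Tubb3 (0.92) and Ldb2 (0.92). Ednrb was followed by Xkr6 (0.93), Cyp4f13 (0.90) and Acaa1a (0.87), and Ednra by Ier3 (0.87), Gtf3a (0.86, and 0.62 within the 10 libraries) and Syt17 (0.85). For Prkg1 they were Msrb3 (0.91), Lynx1 (0.91) and Tram2 (0.89). For Edn1 they were Sp3 (0.89), Nf1 (0.87) and Fv1 (0.84), and for Edn2 Gtf2h4 (0.86), Marchf5 (0.83) and Bag4 (0.82). Npr3 was followed by Slc45a4 (0.92), Pnpla2 (0.86) and Nectin2 (0.85), and Npr1 by Mrc1 (0.86), Lrrc51 (0.86) and Celsr3 (0.86). Among the 10 themselves the closest pair over 14 libraries was Ece1 and Pde5a (r = 0.70, and 0.71 within the 10 libraries), and within the 10 libraries it was Ednrb and Pde5a (0.75, and 0.35 over 14).

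The genes are protein-coding. On GRCm38 in GENCODE M21, Ednrb (ENSMUSG00000022122) lies at chr14:103814625-103844402 on the minus strand and Ednra (ENSMUSG00000031616) at chr8:77663031-77724464 on the minus strand. Edn1 (ENSMUSG00000021367) lies at chr13:42301476-42307990, Edn2 (ENSMUSG00000028635) at chr4:120161206-120167360 and Edn3 (ENSMUSG00000027524) at chr2:174760619-174784042, all on the plus strand. Ece1 (ENSMUSG00000057530) lies at chr4:137862237-137965229 and Pde5a (ENSMUSG00000053965) at chr3:122728947-122859374 on the plus strand. Prkg1 (ENSMUSG00000052920) lies at chr19:30564489-31765033, Npr1 (ENSMUSG00000027931) at chr3:90450591-90465866 and Npr3 (ENSMUSG00000022206) at chr15:11839896-11907287 on the minus strand. Exons of opposite-strand genes also overlap 35 exonic bases of Edn1, 91 of Ednra and 55 of Pde5a.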

How the data were processed

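RNA of 14 colon samples was sequenced from SMARTER mRNA libraries, per the labels' protocols. The submitters' processing notes name GRCm38 and mm10; no source used here names an aligner or counter. The authors deposited raw read counts for 21898 genes and FPKM values, per the file headers. The FPKM values equal counts over length and library total (ratio 1.000002 to 1.000005). Groups come from titles and replicate numbers from library names. The members and gene lists were chosen with earlier results of these data known.

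Genes kept by filterByExpr (minimum count 10, minimum total 15; 14070 genes) were tested with edgeR 4.0.16 (TMM, quasi-likelihood F test, robust, group only, R 4.3.3), adjusted over all genes by Benjamini-Hochberg at 0.05. SE is the log2 fold change over the square root of F. Log2 CPM used a prior count of 2. Ratios used two-sided exact permutation over 3432 arrangements, relations 100000 resamples. Named genes were all 10 members, the 3 smallest p-values per direction in each pathway list, the synthase and cyclase genes, and the 3 closest genes of each member. On simulated counts for this comparison (14070 genes), the test recovered 38% of genes changed 1.3-fold and 58% of those changed 1.5-fold. It recovered 82% of those changed 2-fold and 94% of those changed 3-fold, and of 145 calls, 9 were false. Counts were drawn for each gene separately at its own dispersion, without variation shared between genes. The changed genes were picked at random, so these rates are averages and were not estimated for the 10 members. Alternatives were DESeq2 1.42.0, other scaling, filters and dispersions, covariates, a replicate block, fewer samples and other pseudocounts. Figures used matplotlib 3.10.9.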

Additional observations from a re-analysis of the deposited data

Results flagged for a closer look

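With 28 sets of 7 samples examined (10 genes and 4 ratios in each group), 2 held a sample far from the rest, where chance gives about 1 in 20. Npr3 was at 6.69 CPM in PBS sample 4, while the other PBS samples lay between 2.35 and 3.29 CPM. Prkg1 was at 17.2 CPM (17.19) in PBS sample 2, while the other PBS samples lay between 10.9 and 13.5 CPM. PBS sample 2 also had the highest smooth muscle score of the 14 samples, 7.56. Its part in the Prkg1 value was not tested.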

How the results depend on the processing

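No member passed an adjusted p of 0.05 under any of 24 alternatives. Ednrb, Edn2, Edn3, Ednra, Prkg1, Pde5a and Npr3 kept their sign in all 24, with log2 fold changes of -0.51 to -0.34 for Ednrb, -0.74 to -0.44 for Edn2, 0.37 to 0.94 for Edn3 and -0.59 to -0.16 for Npr3. Signs turned, from values near 0, for Edn1 (-0.23 without the 4 libraries; -0.10 to 0.37 leaving out 1 sample), Ece1 (-0.024 with the distal hindgut covariate, -0.081 without the 4 libraries; -0.011 to 0.084 leaving out 1 sample) and Npr1 (0.0034 with the replicate block; -0.089 to 0.054 leaving out 1 sample); the cause was not tested. Over all genes, 35 passed, against 435 with DESeq2, 15 with the replicate block, 100 with the smooth muscle covariate, 0 without the 4 libraries (edgeR; 1481 with an unadjusted p under 0.05, and fewer samples) and 0 to 121 leaving out 1 sample. That count was 121 without PBS sample 2 and 0 (edgeR; 1684 to 2282 with an unadjusted p under 0.05) without any 1 of PBS samples 5, 6 and 7 and B. thetaiotaomicron samples 1, 2, 4 and 6. It was 1 without PBS sample 1 or 3, 2 without B. thetaiotaomicron sample 7 and 8 without B. thetaiotaomicron sample 3. The Ednra to Ednrb difference was 0.31 to 0.48 leaving out 1 sample and passed only without B. thetaiotaomicron sample 3; no other ratio passed under its 18 alternatives. Deviations of same-numbered samples correlated at -0.26 to 0.60, and 2 of 7 PBS samples correlated best with the B. thetaiotaomicron sample of their own number, so numbers were not taken to pair samples. Npr1 and Npr3 rest on 28 to 103 reads per library.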
